A study of Homo sapiens with 12 samples.

Results

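Tet21N cells with their N-Myc transgene on were compared with the same cells after doxycycline had switched it off, with the MondoA gene not targeted. The comparison uses 6 of the 12 arrays of the series, 3 a side, all from cells that had received a non-specific siRNA (siControl). N-Myc-on cells had no doxycycline, and N-Myc-off cells had 1 microgram/ml of it for 3 days. The other 6 arrays, 3 with and 3 without doxycycline, are from cells given an siRNA against MondoA (siMondoA), and were used to test where the N-Myc response differed between the siRNAs. Every gene with a detectable probe was a member: 12178 genes were tested. The study's title concerns a need of deregulated Myc for MondoA in metabolic reprogramming and tumour growth, and the siControl comparison gives the Myc response where MondoA was left in place.

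Tet21N is a human neuroblastoma line derived from SH-EP cells, which have no MYCN amplification. It carries an N-Myc transgene under a tetracycline-repressible promoter, so doxycycline turns the gene off. It is 1 line, all groups carry the transgene, and every N-Myc-off array is also a doxycycline array, so effects of the drug and of N-Myc cannot be told apart. N-Myc, encoded by MYCN, is a basic helix-loop-helix transcription factor that pairs with MAX and binds E-boxes, the sequence CACGTG, in promoters. MYCN amplification marks a high-risk form of neuroblastoma, and MYC proteins are known for raising genes of ribosome production, nucleotide synthesis and cell division. MondoA (encoded by MLXIP) pairs with MLX, belongs to the same extended network and responds to glucose-derived metabolites.

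On the siControl arrays 18521 to 20726 probes were detected above background (39.1% to 43.8%), and N-Myc-off arrays had more of them (19609 to 20726) than N-Myc-on arrays (18521 to 19190). Across the tested genes, arrays of the same state correlated at r = 0.99 to 0.992 (6 pairs) and arrays of different states at 0.969 to 0.972 (9 pairs). No array stood apart from its group. The labels name neither separate cultures nor slides, so the spread between arrays may be only technical and no batch could be tested. Levels are normalized log2 intensities, on which background lies near 5. Changes are N-Myc on minus off on the log2 scale, and a change of 1 is 2-fold. Errors of levels are SDs and errors of changes are standard errors (SE), both with n = 3 a side.

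The switched gene itself could not be followed. Both MYCN probes were detected on 0 of the 12 arrays, with levels of 4.39 to 4.71 on the siControl arrays, so they check neither the labels nor the transgene. Whether these probes match the transgene's transcript was not tested. For MLXIP, 1 array of 12 passed detection, an N-Myc-on siControl array, so the siRNA's effect on its target could not be checked either. TXNIP, the thioredoxin-binding protein whose gene is a known MondoA target, had levels of 11.26, 11.29 and 11.36 with N-Myc on and of 11.17, 10.93 and 11.17 with N-Myc off. The states did not overlap for TXNIP, but the change of 0.22 (SE 0.12) did not pass the test (adjusted p = 0.18).

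MYC, the paralogue that drives proliferation in cells without MYCN amplification, had one of the largest changes of all. Its levels were 6.31, 5.89 and 6.26 with N-Myc on and 9.08, 9.07 and 9.15 with N-Myc off. N-Myc-on cells therefore had 7.74-fold less MYC transcript (log2 change -2.95, SE 0.13, adjusted p = 3.1e-08). Of the 9 tested genes of the extended MYC network, 0 were higher and 2 lower (22.2%) with N-Myc on. Of all genes tested, 14.6% were higher and 16.3% lower. Besides MYC, the lower network gene was MXD4, a MAX partner that antagonises MYC, at -0.71 (SE 0.13, adjusted p = 0.0012). MAX (0.33, adjusted p = 0.35) and MNT, another MAX-binding repressor (-0.09, adjusted p = 0.72), did not pass. Of 22 genes commonly listed as MYC-induced, 13 were higher and 0 lower (median 0.41), led by PTMA (1.37), a nuclear protein of dividing cells. Of 20 listed as MYC-repressed, 9 were lower and 1 higher (median -0.25), and the exception was GADD45A, a DNA damage response gene (0.35). Its call was lost with median scaling, with the mean over probes and without any 1 of 4 arrays (N-Myc-on replicates 1 and 3, N-Myc-off replicates 2 and 3).

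With N-Myc on, 1774 genes (14.6% of those tested) were higher and 1983 (16.3%) lower, together 3757 genes or 30.9%, by limma with Benjamini-Hochberg adjusted p under 0.05 (a called gene). Without adjustment 4915 genes had p under 0.05. The median change over all genes was -0.01. Most called changes were under 2-fold: 472 genes changed at least 2-fold, 155 upwards and 317 downwards (32.8% upwards). That split was 75 and 455 with median scaling (14.2% upwards), 174 and 266 when scaled on detected probes (39.5%), and 23 and 113 without background correction (16.9%). Changes of 2 or more on the log2 scale were found for 5 higher and 20 lower genes. The 3 arrays of one state lay wholly above or below the other 3 for 5483 genes (45%). Calls were fewer among dim genes: 15.8% of the dimmest of 3 equal classes by mean level, against 36.9% and 39.9% in the brighter ones. The balance of calls depended on the scaling. With median scaling in place of quantile normalization the median change of all genes shifted to -0.11 and 25.6% of 3028 calls were upwards, against 47.2% of 3757. Scaled on detected probes alone, the median was 0.06 and 54.8% of 3812 calls were upwards. All changes below are relative to the other genes on the arrays, and a change in total RNA per cell would not be seen.

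**Figure D1:**
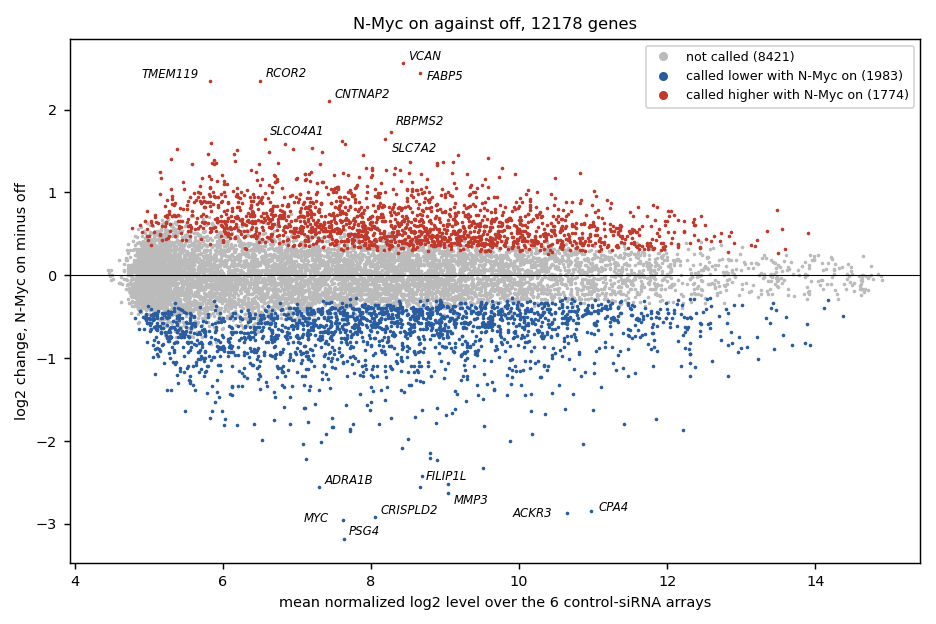
Change with N-Myc on minus off (vertical, log2) against the mean normalized log2 level over the 6 siControl arrays (horizontal), 1 point per gene; red and blue mark the 1774 genes called higher and the 1983 called lower with N-Myc on, grey the 8421 not called. The points reach -3.18 downwards and 2.56 upwards, and the 8 most changed named genes each way carry their symbols.

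The gene with the largest increase was VCAN, the matrix proteoglycan versican. It measured 9.62, 9.6 and 9.92 with N-Myc on and 7.27, 7.1 and 7.08 with N-Myc off, a 5.91-fold rise (log2 change 2.56, SE 0.14, adjusted p = 2.2e-07). FABP5, a fatty acid carrier, measured 9.84, 9.96 and 9.84 against 7.13, 7.59 and 7.6, and rose 5.42-fold (SE 0.16, adjusted p = 8.6e-07). In both genes the gap between the states was far wider than the spread within either. RCOR2, a CoREST corepressor subunit that works with the demethylase KDM1A, measured 7.57, 7.71 and 7.75 against 5.38, 5.43 and 5.19, a 5.09-fold rise (adjusted p = 1.1e-06). TMEM119, a membrane protein known as a microglial marker and for a role in bone formation, went from background to clear signal. It was at 7.2, 6.82 and 6.98 with N-Myc on and was detected on 0 of 3 N-Myc-off arrays, so it was at least 3.75-fold higher (adjusted p = 2.8e-07). CNTNAP2, a neurexin-family adhesion protein of neurons, measured 8.37, 8.43 and 8.65 against 6.46, 6.23 and 6.47 and rose 4.28-fold (adjusted p = 6.6e-07).

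Among the 20 genes with the largest rises were 4 transporters. SLCO4A1, an organic anion transporter, rose by 1.65 on the log2 scale, the cationic amino acid transporter SLC7A2 by 1.64, the monoamine and adenosine transporter SLC29A4 by 1.62 and the neutral amino acid transporter SLC6A15 by 1.52 (adjusted p 1.5e-06 to 6.7e-05). Transcription factors among the 20 were ETV4 of the PEA3 family (1.59), BATF3 of the AP-1 family (1.6, detected on 2 of 3 N-Myc-off arrays) and the proto-oncogene MYB (1.51). MYB measured 6.73, 6.71 and 7.37 with N-Myc on and 5.36, 5.48 and 5.45 with N-Myc off, so 1 N-Myc-on array sat above the other two without bringing the states together. HK2, the hexokinase that commits glucose to glycolysis in many tumours, measured 8.07, 8.1 and 8.08 against 6.6, 6.32 and 6.84, a 2.82-fold rise (SE 0.13, adjusted p = 7.7e-06). A dimmer HK2 probe gave 0.32 (adjusted p over probes = 0.39), so the size of its change rests on the brighter one. EEF1A2, an elongation factor isoform of neurons and muscle, rose by 1.45 (SE 0.14, adjusted p = 1.6e-05). The remaining members were RBPMS2 (1.73), SERPINF1 (1.58), ACOX2 (1.54), GPRC5C (1.49) and FIRRE (1.47), and SH3GL3, which was detected on 0 of 3 N-Myc-off arrays and was at least 2.06-fold higher. GPRC5C scattered widely with N-Myc off (6.54, 5.67 and 5.43), and a second, dim probe of the long noncoding RNA FIRRE gave -0.17 (adjusted p over probes = 0.64).

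The largest decreases exceeded the largest increases. PSG4, a pregnancy-specific glycoprotein, measured 5.89, 6 and 6.23 with N-Myc on and 9.18, 9.22 and 9.27 with N-Myc off, 9.08-fold lower (log2 change -3.18, SE 0.14, adjusted p = 3.1e-08). Its family has near-identical members, so the signal may include others. CRISPLD2, a secreted glycoprotein, was 7.56-fold lower, at 6.63, 6.49 and 6.68 against 9.46, 9.48 and 9.61 (adjusted p = 1e-08). ACKR3, the atypical receptor that scavenges CXCL12, measured 9.29, 9.02 and 9.32 against 12.13, 11.89 and 12.21, 7.29-fold lower (adjusted p = 3.1e-08). CXCL12 itself fell too, from 8.41, 8.21 and 8.07 with N-Myc off to 6.27, 5.73 and 6.03 with N-Myc on (4.65-fold, adjusted p = 8.8e-06). So the ligand and its scavenger were both several-fold lower.

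Several of the other 20 most lowered genes encode secreted or surface proteins. CPA4, a secreted carboxypeptidase, was 7.14-fold lower and the stromelysin MMP3 6.17-fold. DKK1, a secreted inhibitor of Wnt signalling, measured 7.85, 7.8 and 7.69 against 10.22, 10.34 and 10.36 (5.74-fold lower, adjusted p = 2.2e-08). The receptors ADRA1B (alpha-1B adrenergic) and BDKRB1 (bradykinin B1) were 5.89-fold and 5.36-fold lower. Complement protease C1S (4.44-fold), the guidance ligand SLIT3 (4.26-fold), the matricellular protein CCN1 (4.11-fold) and the collagen chain COL8A1 (4-fold) followed. Others were the enzyme DIO2, which activates thyroid hormone (4.68-fold), PIK3IP1, an inhibitor of PI3 kinase (4.64-fold), GPNMB of lysosomes and melanosomes (4.99-fold), FILIP1L (5.91-fold), PRUNE2 (4.11-fold) and ALPK2 (4.03-fold). Adjusted p was at most 8.8e-06 in the 20 lowest genes.

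**Figure D2:**
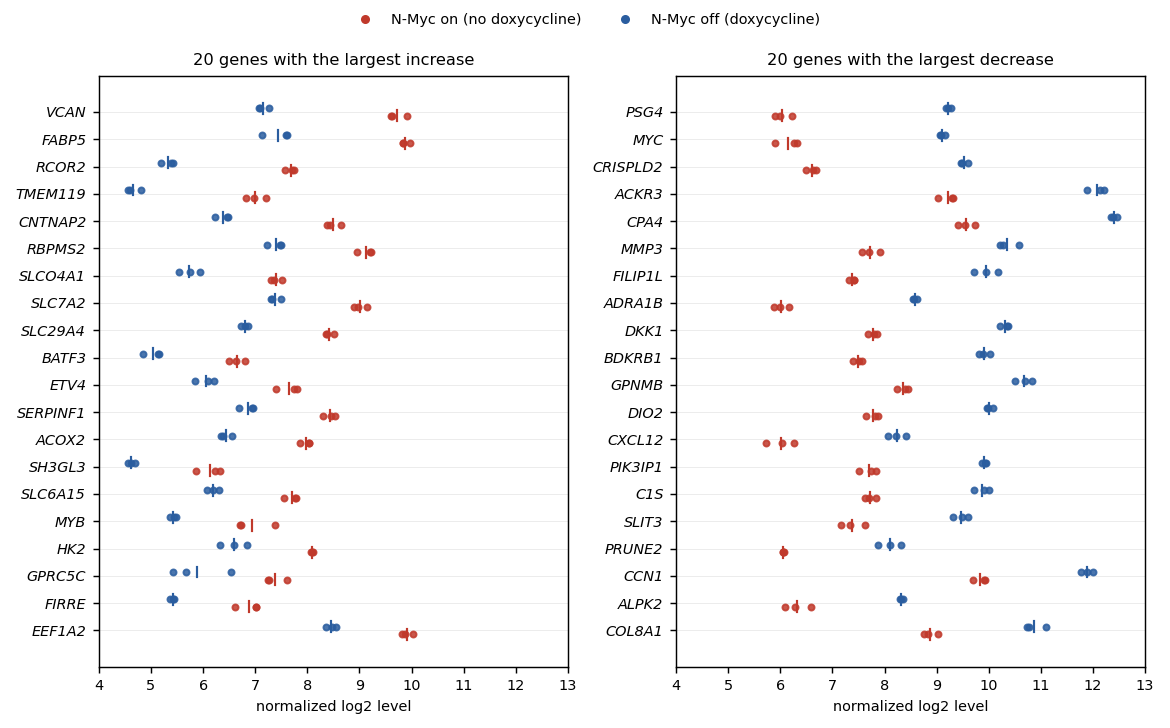
Normalized log2 level on each siControl array (horizontal) of the 20 named genes with the largest increase (left) and decrease (right); red points are the 3 N-Myc-on arrays, blue the 3 N-Myc-off arrays, and short bars their means. The states do not overlap for any of the 40 genes, as the rule for naming them required.

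All called genes of ribosome production were higher with N-Myc on. Of 55 tested ribosome biogenesis factors, which cut, modify and assemble ribosomal RNA in the nucleolus, 31 rose and 0 fell (median change 0.42). NOP16, a nucleolar factor of the large subunit, measured 9.96, 10.02 and 9.76 with N-Myc on and 8.77, 8.99 and 8.97 with N-Myc off (1.01, SE 0.12, adjusted p = 8.4e-05). Fibrillarin (FBL), which methylates ribosomal RNA, measured 11.48, 11.66 and 11.42 against 10.59, 10.61 and 10.48 (0.96, SE 0.12, adjusted p = 8.4e-05). DKC1, the pseudouridine synthase, rose by 0.93 and NOP56, a partner of fibrillarin, by 0.85. Among 14 snoRNA host genes, whose introns carry the guides for those modifications, 11 rose and 0 fell (median 0.63), led by SNHG4 (1.22), SNHG15 (1.03) and SNHG1 (1). Subunits and initiation factors of RNA polymerases I and III, which transcribe ribosomal and transfer RNA, rose in 9 of 33 cases with 0 lower. The largest of these was POLR3K (1.23, SE 0.14, adjusted p = 6.7e-05). With median scaling 16 ribosome biogenesis factors were called higher, not 31, and still 0 lower.

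The promoters of these genes were searched for the E-box, because it is the sequence that MYC and MAX bind. RefSeq promoters (250 bases before to 50 after the start, GRCh38.p14) were at hand for 9742 of the 12178 genes. CACGTG, which is its own reverse complement, occurred in 10.3% of them, in 14.4% of those of genes called higher, 8.13% of genes called lower and 9.97% of genes not called. Of 47 ribosome biogenesis promoters 18 (38.3%) held it, of 11 purine synthesis promoters 2 (18.2%) and of 14 pyrimidine synthesis promoters 2 (14.3%). Genes on the chromosome given as left out with the lysosomal promoters below were not considered in the choice that follows. Stretches of the 3 promoters with the largest rises among ribosome biogenesis and nucleotide synthesis genes that held an E-box are given. They run 5′ to 3′ on the gene's strand, with CACGTG in capitals. They are PPAT at chr4:56435732-56435857 (minus strand), FBL at chr19:39846350-39846433 (minus strand) and PNO1 at chr2:68157837-68157917 (plus strand).
PPAT: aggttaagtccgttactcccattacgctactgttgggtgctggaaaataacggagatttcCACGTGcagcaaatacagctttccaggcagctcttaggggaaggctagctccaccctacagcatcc
FBL: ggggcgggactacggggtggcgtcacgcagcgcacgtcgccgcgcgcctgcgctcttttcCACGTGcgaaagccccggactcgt
PNO1: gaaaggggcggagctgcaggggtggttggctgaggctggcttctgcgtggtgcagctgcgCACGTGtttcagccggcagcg
Relative to the annotated start, the E-box began at -182 in PPAT, at 6 in FBL and at 9 in PNO1. A match is a description of the sequence and shows no binding. PNO1, a factor of small subunit assembly, measured 7.63, 7.61 and 7.8 with N-Myc on and 6.96, 6.89 and 6.85 with N-Myc off (0.78, SE 0.12, adjusted p = 0.00034).

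All called nucleotide synthesis genes were higher with N-Myc on. Of 13 purine synthesis genes 11 rose and 0 fell (median 0.58). PPAT, the enzyme of the committed step, measured 9.95, 9.92 and 9.83 against 8.87, 8.61 and 8.94, a 2.13-fold rise (SE 0.11, adjusted p = 1.8e-05). PRPS2, which makes the ribose phosphate donor, measured 7.72, 7.97 and 7.62 against 6.57, 6.64 and 6.44 and rose 2.32-fold (adjusted p = 5.7e-05). PFAS rose by 0.82 and PAICS by 0.72. Of its other probes 1, at background, gave -0.1. Among 14 pyrimidine and thymidylate genes 7 rose and 0 fell (median 0.37). CAD, the enzyme of the first 3 pyrimidine steps, measured 9.33, 9.44 and 9.1 against 8.31, 8.21 and 8.31 (1.01, SE 0.13, adjusted p = 0.00012), and UCK2, which salvages uridine, rose by 1.05. DUT, which keeps uracil out of DNA, rose by 1.22 and 1.11 by 2 probes and by 0 on another. With median scaling the counts were 7 purine and 4 pyrimidine genes.

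DNA replication genes were mostly called. Of 34 tested genes for origin licensing, forks and polymerases, 29 (85.3%) rose and 0 fell, with a median of 0.71. RFC3, a subunit of the clamp loader, measured 8.85, 8.88 and 8.79 with N-Myc on and 7.54, 7.64 and 7.53 with N-Myc off (2.42-fold, SE 0.1, adjusted p = 3.9e-06). A dimmer RFC3 probe gave 0.44 (adjusted p over probes = 0.13). The polymerase epsilon subunit POLE2 rose by 1.12, MCM10 by 0.99 and the licensing factor CDT1 by 0.98. In the mitosis list 14 of 28 genes were higher and 0 lower (median 0.40). CDK1, the kinase of mitotic entry, led with 1.06 (SE 0.17, adjusted p = 0.00053), then MAD2L1 (0.93), AURKB (0.85) and CCNB1 (0.82). Known proliferation markers of the same list did not pass, MKI67 at 0.19 (adjusted p = 0.42) and CCNA2 at -0.01 (adjusted p = 0.96). The mitosis count was 9 without the first N-Myc-on array and 8 with median scaling.

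Genes of cell cycle entry were mixed. Of 21 G1 genes 7 rose and 2 fell, led by the E2F factors E2F2 (1.35, SE 0.13, adjusted p = 1.4e-05) and E2F5 (1.27, adjusted p = 3.1e-05) and the phosphatase CDC25A (0.99), whose second, dim probe gave 0.34. The upward count fell to 4 without any 1 of 4 arrays (N-Myc-on replicates 2 and 3, N-Myc-off replicates 1 and 2). The cyclin CCND1 (0.24, adjusted p = 0.13), its kinase CDK4 (0.09, adjusted p = 0.62) and the CDK inhibitor CDKN1A (-0.03, adjusted p = 0.84) did not pass. CDKN1A measured 11.97, 11.83 and 12 with N-Myc on and 11.91, 12.02 and 11.97 with N-Myc off, so its states overlapped fully. Of 18 p53 targets 4 were higher (22.2%) and 3 lower (16.7%), against 14.6% and 16.3% of all genes. Changes of these targets ranged from -1.23 (TP53I3) to 0.61, with TP53INP1 at -0.85. Their upward count was 1 with median scaling and 2 without any 1 array but the second N-Myc-off one. Of 15 BCL2 family genes 1 rose (6.67%) and 4 fell (26.7%), against the same 14.6% and 16.3% of all genes. Among those lower were the death-promoting BOK (-0.65) and the survival gene BCL2L1 (-0.61).

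Many nuclear genes of mitochondrial proteins were higher with N-Myc on. Of 74 mitochondrial ribosomal proteins 36 rose and 1 fell (median 0.32), with small changes for most. MRPL30 of the large subunit measured 7.74, 8.19 and 7.81 against 6.49, 7.01 and 6.85 (1.13, SE 0.15, adjusted p = 0.00016), and its other probe gave 0.41. MRPL42 (0.89), MRPS26 (0.83) and MRPL4 (0.81) came next. The count depended strongly on scaling, with 12 called higher after median scaling and 42 when scaled on detected probes. Of 30 import and chaperone genes 17 rose and 0 fell (median 0.40), led by the chaperone TRAP1 (0.92, SE 0.13, adjusted p = 0.00023) and GRPEL1 (0.81). Regulators of mitochondrial DNA and transcripts rose in 9 of 22 cases (4 with median scaling) and fell in 1, including TFAM, which packages and transcribes mitochondrial DNA (0.72, SE 0.13, adjusted p = 0.0012), and LRPPRC (0.73). In the citric acid cycle 5 of 24 rose (20.8%) and 3 fell (12.5%), against 14.6% and 16.3% of all genes. Without the second N-Myc-on array 1 fell. DLAT of the pyruvate dehydrogenase complex measured 7.94, 8 and 8.19 against 7.07, 7.09 and 6.83, a 2.07-fold rise (adjusted p = 0.00018), while IDH1, the cytosolic isocitrate dehydrogenase, fell by 0.73. With median scaling 1 citric acid cycle gene was called higher and 4 lower, and 8 and 3 when scaled on detected probes.

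Translation and RNA processing genes were higher in part. Of 51 translation factors 15 were higher and 0 lower (median 0.22), led after EEF1A2 by EIF2S2 of the initiator tRNA complex (0.95) and EIF4EBP1, which restrains the cap-binding protein (0.86). The count was 8 with median scaling and 28 when scaled on detected probes. Splicing factors rose in 23 of 49 cases with 0 lower (median 0.32), among them HNRNPA1 (0.84), LSM2 (0.82) and SRSF7 (0.76), and in 10 with median scaling. Of 18 cytosolic tRNA synthetases 2 rose and 1 fell, and 0 rose with median scaling or without any 1 of 4 arrays (N-Myc-on replicates 1 and 2, N-Myc-off replicates 1 and 2). Without the third N-Myc-off array 1 rose. Of 15 mitochondrial ones 5 rose (2 with median scaling) and 1 fell, led by MARS2 (0.87) and NARS2 (0.81), and 3 rose without the third N-Myc-off array. Protein chaperones were higher in 7 of 23 cases and lower in 2, with FKBP4, a co-chaperone of HSP90, at 0.99 and the inducible HSPA1A at -0.86. Their upward count was 2 with median scaling and 3 without the first N-Myc-on or the third N-Myc-off array, and 4 without N-Myc-on replicate 3 or N-Myc-off replicate 2. Proteasome subunits were near the background of all genes, with 3 of 33 higher and 6 lower, and 2 to 4 lower without any 1 array. The activator subunit PSME3 (0.61) rose and the immunoproteasome subunit PSMB10 (-0.6) fell. The median changes of the cytosolic synthetases (0.03) and the proteasome (-0.02) changed sign with the scaling. Chromatin regulators rose in 14 of 31 cases with 0 lower (median 0.38, 7 rising with median scaling), among them after RCOR2 LIN28B (1.18), which blocks let-7 microRNAs, HMGB3 (0.94) and the polycomb subunit CBX2 (0.94).

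Glycolysis genes were called at rates near those of all genes. Apart from HK2, LDHB (0.66, SE 0.12, adjusted p = 0.0013) was the only other of 22 tested genes to rise, and 4 fell (median -0.15, which became 0.01 when scaled on detected probes). The neuronal-type glucose transporter SLC2A3 fell by 0.88 (SE 0.11, adjusted p = 9.6e-05), the aldolases ALDOC by 0.8 and ALDOA by 0.74. ALDOA has another probe at -0.25 (adjusted p over probes = 0.17). LDHA, a textbook MYC target, measured 13.47, 13.58 and 13.5 with N-Myc on and 13.88, 13.74 and 13.65 with N-Myc off, a change of -0.24 that did not pass (adjusted p = 0.12). The main glucose transporter SLC2A1 did not pass either (-0.15, adjusted p = 0.33).

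Amino acid genes changed in both directions. Of 25 transporters and glutamine enzymes 8 rose and 2 fell, with the glutamate transporter SLC1A3 at 1.38 beside SLC7A2 and SLC6A15, and the leucine transporter SLC43A2 at -1.63. Of 21 ATF4 and amino acid stress genes 8 rose and 3 fell. They included MTHFD2 of mitochondrial folate metabolism, at 9.5, 9.56 and 9.6 against 8.16, 8.32 and 8.2 (2.51-fold, adjusted p = 8.8e-06), PSAT1 of serine synthesis (1.06) and CBS of transsulfuration (0.95). The medians of these lists (0.02 and 0.1) turned negative with median scaling, where 5 members of each rose. In the polyamine and methionine cycle 8 of 18 rose and 0 fell, led by AMD1, which makes the aminopropyl donor (1, SE 0.17, adjusted p = 0.001), and ENOPH1 (0.8). With median scaling 3 of these rose.

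Cholesterol and fatty acid genes were mostly lower among those called. Of 22 cholesterol genes 12 fell and 1 rose (median -0.53). LSS, lanosterol synthase, measured 8.74, 8.92 and 9.06 with N-Myc on and 10.05, 10.24 and 10.36 with N-Myc off (2.48-fold lower, adjusted p = 9.8e-06), and TM7SF2 (-1.4) and MSMO1 (-1.23) also fell. MSMO1 fell by 1.21 on another probe and stood at 0.34 on a dimmer one (adjusted p over probes = 0.28). In fatty acid synthesis 6 of 19 fell and FABP5 rose. The desaturase SCD fell by 1.01 and the regulator SREBF1 by 0.71, while fatty acid synthase (FASN) did not pass (-0.13, adjusted p = 0.45). Of 35 redox genes 10 fell and 1 rose, with the mitochondrial dismutase SOD2 at -1.03 and SQSTM1 at -0.74. Of 17 hypoxia genes 5 fell and 0 rose, including EPAS1, which encodes HIF-2 alpha (-1.16). None of the 10 tested KLF factors was called (0 higher, 0 lower, median -0.05).

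Lysosomal genes were the list with the largest number of lowered members, though the TGF-beta and BMP list had a larger share (76.5%). Of 54 tested hydrolases, membrane proteins and proton pump subunits, 38 (70.4%) fell and 2 rose (median -0.59). The sphingomyelinase SMPD1 measured 7.27, 7.36 and 7.05 with N-Myc on and 8.73, 8.73 and 8.81 with N-Myc off (2.89-fold lower, SE 0.17, adjusted p = 4.3e-05). The sialidase NEU1 measured 9.4, 9.08 and 9.24 against 10.66, 10.4 and 10.6 (2.48-fold lower, adjusted p = 1.3e-05). Cathepsin D (CTSD), a main lysosomal protease, measured 10.99, 10.93 and 10.61 against 11.84, 12.06 and 11.99 (2.17-fold lower, adjusted p = 0.00034). IDUA, which degrades glycosaminoglycans, fell by 1.53 and was detected on 2 of 3 N-Myc-on arrays. The exceptions were CTSC (0.71) and LAPTM4B (0.56), named here after their values were seen. Among 34 autophagy and TFEB-family genes 13 fell and 2 rose, led downwards by MAP1LC3A (-1.1), an LC3 isoform with a dim second probe at 0.03, FNIP1 (-0.99) and WIPI1 (-0.97). TFEB, the master regulator of lysosome genes, was near background (0.01, adjusted p = 0.97).

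TFEB and its relatives bind an extended E-box, GTCACGTG, which contains CACGTG. Searched on both strands, GTCACGTG occurred in 8 of 37 lysosomal promoters (21.6%). It was in 4.5% of all promoters and in 4.19% of those of genes called lower. CACGTG was in 10 of the 37 (27%). The lysosomal genes with an E-box and the largest decreases were NEU1 at chr6:31862882-31863007 (minus strand) and CTSD at chr11:1763909-1764034 (minus strand). Their stretches are shown because the same 6 bases stand in promoters of genes that fell, here with CACGTG in capitals.
NEU1: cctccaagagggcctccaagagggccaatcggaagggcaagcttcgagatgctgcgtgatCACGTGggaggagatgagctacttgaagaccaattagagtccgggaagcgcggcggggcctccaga
CTSD: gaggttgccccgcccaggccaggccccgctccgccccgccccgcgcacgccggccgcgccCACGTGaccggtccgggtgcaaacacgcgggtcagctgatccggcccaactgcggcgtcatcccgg
Relative to the start, the E-box began at -126 in NEU1 and at -47 in CTSD, and in CTSD it is part of GTCACGTG on the reverse strand.

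Most called matrix genes were lower with N-Myc on, with VCAN among the exceptions. Of 36 collagens and matrix glycoproteins 23 fell and 2 rose (median -0.63). SPARC, a collagen-binding matricellular protein, measured 10.57, 10.22 and 10.76 against 12.21, 12.22 and 12.5 (3.47-fold lower, SE 0.16, adjusted p = 8.8e-06). COL12A1 fell by 1.33 and the laminin chain LAMA4 by 1.32. Of 28 matrix enzymes 18 fell and 2 rose (median -0.56). After MMP3 the urokinase PLAU measured 9.58, 9.41 and 9.32 against 10.95, 10.87 and 10.79 (2.7-fold lower, adjusted p = 8.4e-06). LOXL4, a collagen cross-linking enzyme, was detected on 0 of 3 N-Myc-on arrays and was at least 1.99-fold lower. ADAM12 fell by 1.64, detected on 1 of 3 N-Myc-on arrays, but its other probes near background gave -0.02 and -0.62. Proteoglycans other than VCAN included LUM (-1.23), SDC4 (-1.15) and DCN (-1.13), and 6 of 16 fell while 3 rose.

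Called adhesion and contractile genes were lower as well. Of 26 integrins and focal adhesion genes 15 fell and 0 rose (median -0.46). ITGA3, a laminin receptor chain, measured 11.81, 11.63 and 12.02 against 12.8, 12.63 and 12.89 (1.94-fold lower, adjusted p = 0.00013). The tetraspanin CD151 fell by 0.86, vinculin (VCL) by 0.82, and ITGB4 was detected on 0 of 3 N-Myc-on arrays and was at least 1.59-fold lower. Of 21 actin and SRF target genes 11 fell and 0 rose, with TAGLN, a smooth muscle actin-binding protein, at 8.08, 8.12 and 8.3 against 9.93, 9.82 and 9.82 (3.23-fold lower, adjusted p = 9.6e-07) and TPM1 at -1.21. ACTA2 (smooth muscle actin) did not pass (0.19, adjusted p = 0.16).

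Targets of YAP and TAZ, which act through TEAD factors, fell in 11 of 22 cases and rose in 1 (median -0.48). The rise, in TEAD2, was lost with median scaling and without any 1 of 5 arrays (all but the first N-Myc-off one). CCN1 and CCN2, their best-known targets, moved together. CCN1 measured 9.7, 9.92 and 9.9 with N-Myc on and 11.77, 11.88 and 12 with N-Myc off. CCN2 measured 10.28, 10.09 and 10.18 against 11.95, 11.71 and 11.78 (3.09-fold lower, SE 0.11, adjusted p = 8.2e-07). TGFB2 fell by 1.73, detected on 1 of 3 N-Myc-on arrays, and CRIM1 by 1.55. YAP1 itself had a change of 0 (adjusted p = 0.99). The TEAD motif GGAATG, on either strand, was in 6 of 16 promoters of this list (37.5%) and in 10.7% of all promoters. It was also in 3 of 11 purine synthesis promoters (27.3%) and 8 of 47 ribosome biogenesis ones (17%). In lysosomal promoters it was in 3 of 37 (8.11%) and in pyrimidine synthesis ones in 0 of 14. The 250 bases cover only the nearest sequence. In the TGF-beta and BMP list 13 of 17 fell and 1 rose (median -0.65). The receptor TGFBR2 measured 8.68, 8.51 and 8.72 against 9.92, 9.75 and 9.85 (2.31-fold lower, adjusted p = 9.3e-06), and the response genes ID3 (-1.01) and ID2 (-0.93) fell with it.

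**Figure D3:**
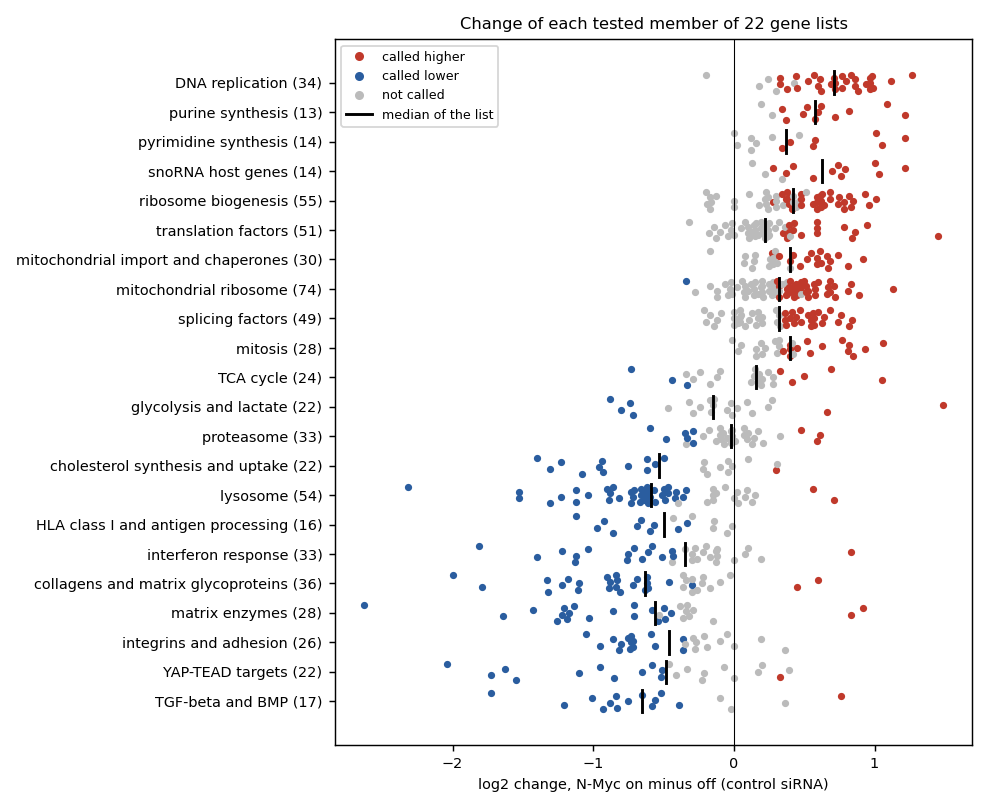
Change with N-Myc on minus off (horizontal, log2, siControl arrays) of each tested member of 22 gene lists, with the number of members in brackets; red points are genes called higher, blue called lower, grey not called, and black bars list medians. Purine and snoRNA host genes and 33 of 34 replication genes lie to the right of 0, and lysosome, matrix and TGF-beta genes mostly to the left.

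Among signalling ligands and receptors, 11 of 28 growth factor genes fell and 2 rose. HBEGF, an EGF receptor ligand, measured 6.7, 6.93 and 6.68 against 8.57, 8.64 and 8.73 (3.67-fold lower, adjusted p = 1.1e-06), and IGFBP5 fell by 1.45 while IGFBP2 rose by 1.05. AP-1 and ERK feedback genes split evenly, with 5 of 24 higher and 5 lower (20.8% each way), against 14.6% and 16.3% of all genes. JUN measured 9.3, 9.03 and 9.03 against 10.45, 10.58 and 10.64 (2.71-fold lower, adjusted p = 2.5e-06), whereas ETV4, IER3 (1.23) and SPRY2 (0.9) rose. The median of that list, 0.05, became -0.08 with median scaling. Among 23 semaphorins and their receptors 11 fell and 1 rose, with SEMA5A at -1.8 and NRP1, the neuropilin co-receptor, at -1.43. NRP2 fell by 1.47 on its brightest probe but 1 of its 3 others rose by 0.86, so its direction depends on the probe.

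Called immune genes were mostly lower. Of 26 chemokine and cytokine genes 14 fell and 1 rose (median -0.54), with the TWEAK receptor TNFRSF12A at -1.92 and CXCL8 at -1.18 (another probe at -0.47). Of 13 complement genes 6 fell and 1 rose, among them C1R (-1.72), the partner of C1S, and factor B (CFB, -1.78). Of 33 interferon response genes 15 fell and 1 rose (median -0.35). IRF7, the transcription factor that amplifies interferon, measured 5.25, 5.31 and 5.28 with N-Myc on and 7.05, 7.22 and 6.99 with N-Myc off (3.5-fold lower, SE 0.2, adjusted p = 3.6e-05). IRF9 of the interferon-activated complex fell by 1.4, IFIT3 by 1.22 and IFI35 by 1.13. Of 16 class I HLA and peptide-loading genes 10 fell and 0 rose (median -0.50). HLA-B measured 9.31, 9.36 and 9.22 against 10.26, 10.55 and 10.43 (2.17-fold lower, adjusted p = 5.7e-05), HLA-F fell by 0.97 and the loading factor TAPBP by 0.92. HLA genes are close copies of one another, so their probes may share signal. The secretory pathway list had 9 of 31 lower and 0 higher, a count of 5 without the first N-Myc-off array.

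The cell type markers were checked against the label. Of the marker lists for the mesenchymal and adrenergic states of neuroblastoma, 19 of 23 mesenchymal markers on the array were detected on all 6 siControl arrays, against 5 of 15 adrenergic ones. The 5 were the adrenergic transcription factors HAND2, GATA2, GATA3, ISL1 and TBX2. HAND1, EYA1, the catecholamine enzymes DBH, TH and DDC and the granule protein CHGA were detected on 0 of 6. The summed level of the mesenchymal markers was 14.49 to 14.57 (log2) with N-Myc on and 15.07 to 15.14 with N-Myc off. Of its 21 tested members 8 fell and 2 rose, with SNAI2 (-1.34) and the receptor kinase AXL (-1.1) among those lower and SIX4 (0.85) higher. The count was 5 without the first N-Myc-off array, and PRRX1 (0.21, adjusted p = 0.17) and TWIST1 (-0.16, adjusted p = 0.31) did not pass. Of 7 tested adrenergic markers 1 was called, CHGB, which was detected on 0 of 3 N-Myc-on arrays and was at least 1.15-fold lower. Neuronal genes split, with CNTNAP2 higher and NEFL (neurofilament light chain, -1.61) and SLIT2 (-1.2) lower. Of 16 tested, 3 rose (18.8%) and 4 fell (25%), against 14.6% and 16.3% of all genes.

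Markers of other cell types were mostly silent. Of 8 endothelial markers 0 were detected on all 6 arrays, and CDH5, VWF, TEK, TIE1, KDR and CLDN5 on 0 of 6. Of 9 blood cell markers 1 was detected on all 6 (CD68), with a summed list level of 9.81 to 9.98 with N-Myc on and 9.74 to 9.95 with N-Myc off, and the pan-leukocyte gene PTPRC was on 0 of 6. LYZ, close to background, was called higher (adjusted p = 0.049), a call lost without any 1 of the 6 arrays, with the replicate block, without background correction, with an offset of 50 and with no detection filter. The simple epithelial keratins KRT8, KRT18 and KRT19 were detected on all 6 arrays, while CDH1, KRT5, KRT14 and ESRP1 were on 0 of 6. The summed epithelial level was 9.4 to 9.56 with N-Myc on and 10.04 to 10.39 with N-Myc off. KRT8 fell by 1.06 (SE 0.14, adjusted p = 0.00011). KRT18 fell by 0.67 (adjusted p = 0.026), a call lost when its 2 probes, which disagree, were averaged (-0.09) and without any 1 of 4 arrays. In bulk RNA, fewer cells of a type and less RNA per cell cannot be told apart.

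Some genes crossed the detection limit. Among 11199 genes with a probe detected on at least 3 of the 6 siControl arrays, 27 were detected on all N-Myc-on arrays and on 0 N-Myc-off arrays (20 of them called), and 133 the other way round (93 called). The N-Myc-off arrays also had more detected probes in all, and the part of that in this count was not tested. With the largest bounds, EDN1, the vasoconstrictor endothelin-1, was at 6.18, 6.45 and 6.29 with N-Myc off and 4.59, 4.67 and 4.74 with N-Myc on, at least 2.19-fold lower (adjusted p = 2.2e-06). LIPH (2.01-fold), LGR4, a receptor for R-spondins (1.97-fold), RAET1G, a ligand of the killer-cell receptor NKG2D (1.86-fold), and the gelatinase MMP9 (1.84-fold) were lower by at least the bound given. In the other direction, after TMEM119 and SH3GL3, PDE3B was at least 1.87-fold higher, EYA3 1.66-fold, ACSM3 1.62-fold and CGN, a tight junction protein, 1.6-fold.

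The same switch in siMondoA cells, measured on the other 6 arrays, gave 1818 genes higher (14.9%) and 1837 lower (15.1%). With median scaling 76.2% of its 3148 calls were upwards, against 49.7% in the main setting. Of the 1774 genes higher with siControl, 892 were also higher with siMondoA (50.3% of the first list, 49.1% of the second) and 44 were lower. Of the 1983 lower with siControl, 924 were also lower (46.6% and 50.3%) and 88 were higher. The difference of the changes was tested directly as an interaction, siControl change minus siMondoA change, and passed for 1059 genes (8.7%), 432 positive and 627 negative. That balance moved with the scaling, to 86 positive and 1367 negative of 1453 with median scaling (median of all genes -0.27) and 662 against 524 of 1186 when scaled on detected probes (0.1). The total was 678 without the second N-Myc-on siControl array and 686 without the third N-Myc-off one. Among genes higher with siControl the interaction passed for 265 (14.9%), of which 232 had the larger rise in siControl cells. Among those lower it passed for 391 (19.7%), of which 371 had the larger fall there. Those genes were chosen on the siControl change, which is part of the interaction, so the direction of these counts is a description.

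Ribosome biogenesis, lysosomal and DNA replication genes had like counts with each siRNA, and mitochondrial ribosomal and mitosis genes did not. Ribosome biogenesis rose in 31 genes with siControl and 30 with siMondoA, with 1 positive and 2 negative interactions, which became 0 and 9 with median scaling and 2 and 7 without background correction. Lysosomal genes fell in 38 and 37, with 3 positive and 1 negative, which became 0 and 3 with median scaling and 5 and 2 without background correction. DNA replication rose in 29 and 28, with 1 positive and 4 negative, which became 0 and 8 with median scaling and 1 and 2 when scaled on detected probes. Mitochondrial ribosomal proteins rose in 36 genes with siControl and 10 with siMondoA. Of the 74 interactions 2 passed as positive and 1 as negative, which became 16 and 1 without background correction and 0 and 2 with median scaling. Mitosis genes rose in 14 with siControl and 27 of 28 with siMondoA, and all 10 interactions that passed were negative, that is, the rise was smaller in siControl cells. MKI67 rose by 1.04 and CCNA2 by 0.92 with siMondoA. Under the scalings tried 8 to 17 mitosis interactions passed, with 0 positive.

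Adhesion genes and YAP targets were among those with a difference between the siRNAs. With siMondoA 5 of 22 YAP-TEAD targets rose and 1 fell, and 7 interactions passed with 0 positive. CCN1 fell by 2.04 on the log2 scale in siControl cells and rose by 0.84 in siMondoA cells (interaction -2.87, adjusted p = 7.5e-06), and CCN2 fell by 1.63 and rose by 0.41 (adjusted p = 1.8e-05). ANKRD1, another target, changed by -0.85 and 1.22 (interaction -2.07, adjusted p = 0.0034). Its siControl call was lost without the second N-Myc-off array (adjusted p = 0.068). Of 26 integrin and adhesion genes 10 had a negative interaction and 0 a positive one, among them CD151, which fell by 0.86 with siControl and stood at 0.45 with siMondoA (adjusted p = 0.00049). Under the scalings tried 5 to 11 adhesion interactions passed, with 0 positive. Interferon response genes went the other way with 5 positive interactions and 0 negative, which became 0 and 2 with median scaling.

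Single genes with the largest interactions included reversals. KRT8 fell by 1.06 with siControl and rose by 1.32 with siMondoA (interaction -2.39, adjusted p = 2.6e-05). SLC27A2, which takes up very long chain fatty acids, changed by -0.98 and 1.16. Others fell with siControl and did not pass with siMondoA. HKDC1, a hexokinase domain protein, had -1.83 and 0.36, HBEGF -1.88 and 0.35, DIO2 -2.23 and -0.01, and CRISPLD2 -2.92 and -0.2. On the positive side, FAM107B rose by 1.46 with siControl and fell by 0.97 with siMondoA (interaction 2.42, adjusted p = 2.6e-05). HERC5, which attaches the ubiquitin-like ISG15, changed by 0.63 and -1.52, ENHO by 0.56 and -1.3, and RHOU by 0.4 and -1.12, though the RHOU rise with siControl was lost without any 1 of 5 arrays and with median scaling. TMEM119 (2.34) and CNTNAP2 (2.1) rose with siControl and did not pass with siMondoA (0.06 and 0.15, adjusted p = 0.78 and 0.44). In siMondoA cells TMEM119 was near background in both states (means of 4.6 on and 4.54 off). CNTNAP2 with N-Myc off had a mean of 8.39 with siMondoA and of 6.38 with siControl. RCOR2 rose with both siRNAs, by 2.35 with siControl and by 0.71 with siMondoA. TXNIP rose by 1.29 with siMondoA and had 0.22 with siControl (interaction -1.07, adjusted p = 0.0022). Its mean levels with siMondoA were far lower, 7.96 with N-Myc on and 6.67 off, against 11.31 and 11.09 with siControl. That difference between the siRNAs was not tested here. MYC fell with both siRNAs, with changes of -2.95 and -1 (interaction -1.95, adjusted p = 7.7e-05).

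**Figure D4:**
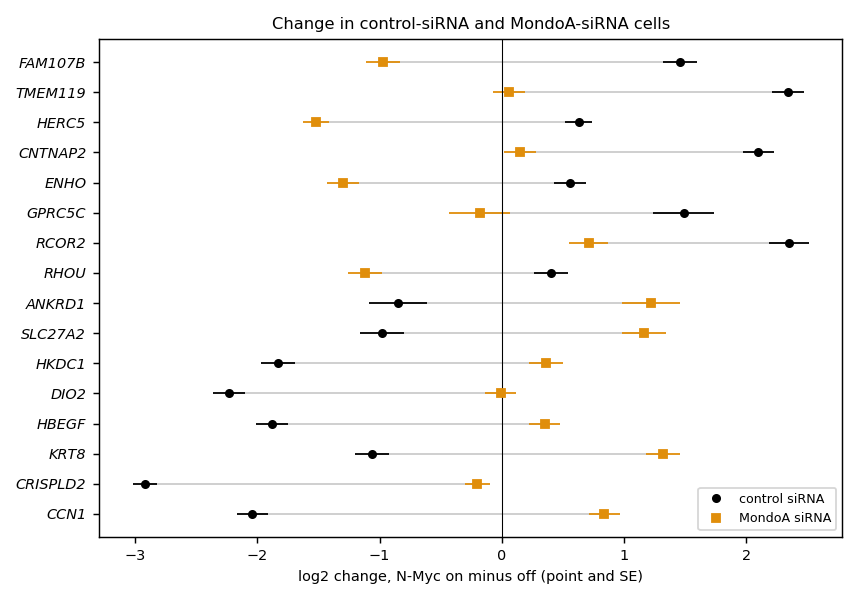
Change with N-Myc on minus off (horizontal, log2, points with SE) in siControl cells (black circles) and siMondoA cells (orange squares) for the 8 genes with the highest and the 8 with the lowest interaction values among those called with siControl. The symbols are far apart in every gene, by 1.52 to 2.42 in the upper 8 and by 2.07 to 2.87 in the lower 8.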

How the data were processed

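Tet21N RNA was hybridised as biotinylated cRNA to 12 Illumina bead arrays, 4 groups of 3. The authors deposited probe intensities that, by their values, carry no background correction or normalization between arrays. With each intensity the authors deposited a detection score, a fraction that is 1 minus the detection p-value. The authors' deposited log2 table matched quantile-normalized log2 intensities to within 5.3e-14. The submitters' processing notes name lumi, without its role.

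The 47313 probes with values were processed with limma 3.58.1 in R 4.3.3: neqc with an offset of 16, its background taken from the detection p-values, then quantile normalization. The platform annotation gave 1 symbol for 30108 probes, several for 8 and none for 17197. Kept were the 22188 probes with detection p under 0.05 on at least 3 of 12 arrays (16385 named), and the probe with the highest mean stood for each of 12178 genes. The model had 1 mean per group over 12 arrays (8 residual degrees of freedom), with Benjamini-Hochberg adjustment over all genes. The number of arrays limits the precision (median SE of a change 0.15). The method was tested on simulated data.

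For "at least N-fold", the undetected state was set per array at its own signal or at the array's lowest detected one, whichever was higher. Named genes were MYC, MYCN, MLXIP and TXNIP, then the 20 highest and 20 lowest called changes with no overlap of arrays and no provisional symbol. To these came up to 4 called members per list with the largest change, uncalled members a list is known by, the 8 highest and 8 lowest interactions and the 6 largest bounds each way. Genes outside that rule, CTSC, LAPTM4B, GADD45A, LDHB and TEAD2, were chosen after their values were seen. Members, lists and tests were chosen with earlier results of these data known. Of 1510 list genes 1291 were tested, and the rest are not analysed here. Alternatives covered background correction, scaling, offset, detection filter, probe choice, the 6 arrays alone, a replicate block and leaving out each array.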

Additional observations from a re-analysis of the deposited data

Results flagged for a closer look

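The genes considered here are those named for the largest changes, the largest interactions or the design (MYC and TXNIP). For 38 of them the change with N-Myc differed between siControl and siMondoA cells. The difference itself was tested (limma, adjusted p under 0.05 over all genes), and 1059 of all genes (8.7%) passed. Genes named only as list members, such as CCN2, are not in this count. Values are the siControl change minus the siMondoA change on the log2 scale. Because these genes were picked partly for large siControl changes or for interactions that passed, their number and sizes are a description.

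Positive differences were found for FAM107B (2.42), TMEM119 (2.28), HERC5 (2.14), CNTNAP2 (1.95), ENHO (1.86), GPRC5C (1.67), RCOR2 (1.63) and RHOU (1.52). They were also found for VCAN (1.39), FABP5 (1.33), SLC29A4 (1.14), FIRRE (0.99), ACOX2 (0.88) and RBPMS2 (0.74). The last 6 of these rose with both siRNAs, by more with siControl.

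Among genes that fell with siControl, differences were -2.87 for CCN1, -2.71 for CRISPLD2, -2.39 for KRT8, -2.23 for HBEGF, -2.22 for DIO2, -2.19 for HKDC1, -2.14 for SLC27A2 and -2.07 for ANKRD1. Smaller ones were -1.97 for DKK1, -1.95 for MYC, -1.9 for PSG4, -1.6 for CPA4, -1.5 for COL8A1 and -1.46 for ACKR3. The remaining values were -1.36 for BDKRB1, -1.35 for FILIP1L, -1.15 for MMP3, -1.08 for CXCL12, -0.99 for PIK3IP1, -0.96 for ADRA1B, -0.92 for C1S and -0.83 for ALPK2. EEF1A2 rose with both siRNAs but by 1.32 less with siControl (-1.32), and TXNIP, not called with siControl, had -1.07.

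With median scaling 35 of the 38 kept their call and direction, the exceptions being SLC29A4, ACOX2 and RBPMS2. Scaled on detected probes 37 did, all but ADRA1B, and without background correction all 38.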

How the results depend on the processing

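The siControl count of 3757 genes ranged from 3028 to 4175 over the settings with all arrays and from 2947 to 3178 without 1 array. The genes also called in the main setting numbered 2702 of 3028 with median scaling and 3518 of 4175 without background correction. The count of genes changed at least 2-fold, 472, fell to 136 without background correction and to 238 with an offset of 50, and was 485 to 516 without 1 array. The interaction count of 1059 was 1695 without background correction and 678 to 802 without 1 siControl array. The siMondoA count of 3655 ranged from 3148 to 4178 with all arrays. Scaling moved the direction of calls in the siControl, 2-fold, siMondoA and interaction counts. Some lists had 1 called member against the main direction. In the BCL2, TGF-beta, chemokine, complement, cholesterol, redox and semaphorin lists none was left with median scaling or without 1 or more single arrays. In the interferon response, fatty acid synthesis and mitochondrial synthetase lists at least 1 such call was present in every setting. Same-numbered arrays had no visible shared deviation: deviations of same-numbered N-Myc-on and N-Myc-off arrays correlated at 0.04, 0.06 and 0.01. Such values cannot show whether the cultures were paired, which the labels do not say. With the replicate block 3647 siControl genes, 472 of at least 2-fold, 3500 siMondoA genes and 904 interactions passed. Of 229 named genes none reversed under any of these alternatives, and at most 16 lost their call (median scaling). Of 55 list medians, 4 changed sign with median scaling (cytosolic synthetases, AP-1 and ERK, ATF4, amino acid genes) and 3 when scaled on detected probes, a setting chosen after seeing the data (glycolysis, proteasome, neuronal genes). The cause of these shifts was not tested. Dim genes limit the depth: MYCN and MLXIP gave no usable signal.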

Other observations

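Of 5803 detected probes with no gene symbol, tested apart from the named genes in the siControl comparison, 436 (7.51%) were called, 276 higher and 160 lower with N-Myc on, and 95 of them changed at least 2-fold.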
